A study of Oryza sativa with 36 samples.

Results

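The photosystem and light-harvesting genes described here are 33 nuclear rice loci of the 38978 genes in the count table. They were taken by locus identifier from a list covering the antenna proteins of both photosystems, subunits of photosystem I and photosystem II, and carriers that pass electrons between and beyond the photosystems (plastocyanin, ferredoxin, ferredoxin-NADP reductase and the Rieske protein). The rule itself uses no measured value, but the list was drawn up with earlier results of these data known. For description the loci were divided by hand, from general knowledge, into 5 role lists: LHCB (8 loci), LHCA (6 loci), PSI subunits (9 loci), PSII subunits (6 loci) and electron carriers (4 loci). Apart from Os03g0592500, which the study annotates as a chlorophyll a/b binding protein of photosystem II, neither the study nor the reference tables used here name these loci individually, so they are given by identifier and the division into lists was not checked.

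Photosystem II splits water and passes its electrons through the cytochrome complex and plastocyanin to photosystem I, which reduces ferredoxin, and ferredoxin-NADP reductase then makes NADPH for carbon fixation. The LHCB and LHCA proteins bind chlorophyll and funnel light energy to photosystem II and photosystem I. In green tissues such as the leaf and the leaf sheath these genes are among the most abundantly transcribed of the nuclear genome, their transcripts follow light and the time of day, and they commonly decline in senescing or attacked tissue.

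Leaf sheaths were sequenced from seedlings at the 4-leaf stage of B14, B15 and B1415, near-isogenic lines (NILs) carrying the brown planthopper (BPH) resistance genes BPH14, BPH15 or both, and from their recurrent parent RP, the indica cultivar 'Wushansimiao', into which those genes had been bred. Each line was sampled non-infested (B14_0, B15_0, B1415_0, RP_0), after early feeding, which pooled 3, 6 and 12 h of infestation, and after late feeding, which pooled 24, 48 and 72 h, with 8 nymphs per infested seedling and 15 seedlings per replicate. Infestation was begun at staggered times and all plants were collected together, so stages differ in the length of feeding and not in the time of harvest. There were 3 replicates in each of the 12 groups (36 libraries), with total counts of 10601967 to 18692187 (median 15884382); single infestation times cannot be read from the pools, and each NIL was a single line that can carry donor segments other than the resistance genes.

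The lowest count of any of the 33 genes in any library was 67, and all 33 passed the filter on low counts in every comparison. Several libraries did not group with their own replicates over these genes. The library B14_0-3 was closest to B15_0-2, but at a Euclidean distance of 2.39 over the log2 levels of the 33 genes. That was the largest distance of any library to its nearest, followed by 1.65 for B14_late-1. B14_0-3 had 3.06% of its counts on the 33 genes, against 2.09% and 2.12% in B14_0-1 and B14_0-2. Counts and fold changes that rest on B14_0 are therefore also given without B14_0-3. All 3 libraries of B15_late and all 3 of B1415_late were closest to a late library of another line, B14_late-1 was closest to RP_late-3, and B15_early-1, B1415_0-1 and B1415_0-3 were likewise closest to a library of another line at their stage. Whether any of these libraries carries the label of another could not be settled from the files, and the labels were used as given. Light-harvesting genes form families of similar copies, and how reads shared by copies were counted is not given in the sources used here, so levels of single loci of these families are uncertain. In such bulk tissue, fewer green cells and less RNA per cell cannot be told apart.

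Os03g0592500 is the locus of this set that the study also measured by qRT-PCR, and its primers are shown as the record of that assay. Whether these primers also match similar copies was not checked. Both were taken from the study's primer table and are written from the 5′ end, 21 and 20 bases long.
Os03g0592500 forward: ccagagcatctggtatggacc
Os03g0592500 reverse: aactctccggtcaggtacga

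Before feeding, the 33 genes together took 2.43% ± 0.551 of all counts in B14_0, 3.10% ± 0.179 in B15_0, 2.30% ± 0.214 in B1415_0 and 2.08% ± 0.0425 in RP_0 (mean ± SD, n = 3 each). After early feeding the share was 2.18% ± 0.137 in B14, 2.71% ± 0.258 in B15, 1.96% ± 0.0276 in B1415 and 2.01% ± 0.119 in RP. After late feeding it was 1.29% ± 0.185 in B14, 1.79% ± 0.171 in B15, 1.73% ± 0.102 in B1415 and 1.75% ± 0.0908 in RP. In every line the 3 late libraries lay below the 3 non-infested libraries. B15 held the highest share before feeding and B14 the lowest after late feeding.

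**Figure D1:**
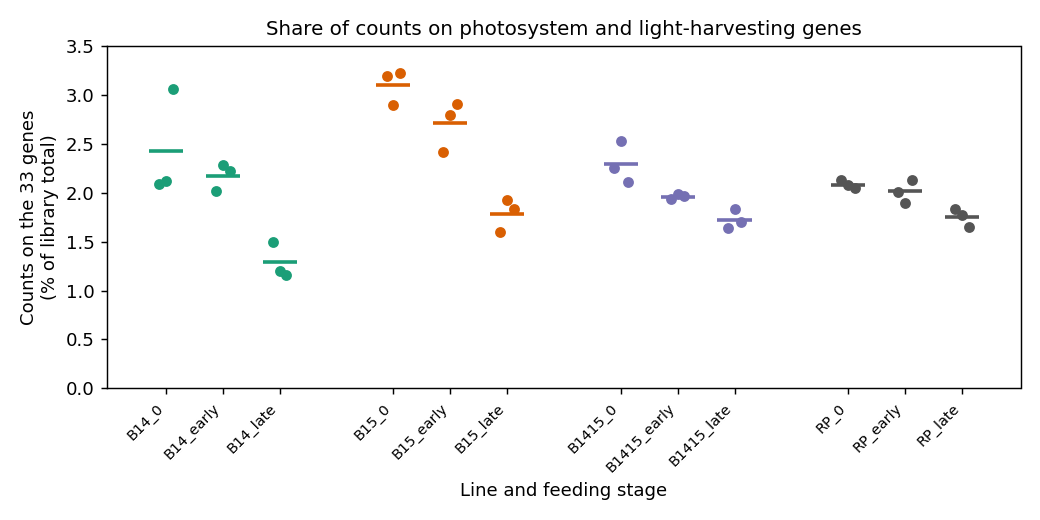
Share of each library's total count that fell on the 33 photosystem and light-harvesting genes (y axis, percent), by line and feeding stage (x axis), with 1 point per library and a bar at the mean of 3. The share is highest in B15_0 (mean 3.10%) and lowest in B14_late (mean 1.29%), and the point at 3.06% in B14_0 is library B14_0-3.

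Single genes differed in how far they moved. The ratio of the highest to the lowest of the 12 group means, in CPM (counts scaled to library size with TMM factors), ran between 1.90 for Os01g0501800 on the PSII list and 13.8 for Os01g0720500 on the LHCB list, with a median of 2.85. B14_late was the lowest group for 31 of the 33 genes, the exceptions being Os09g0346500 and Os01g0501800. B15_0 was the highest group for 22 genes and B14_0 for 6. For each of these 6 genes B14_0 was highest through B14_0-3 alone, and B14_0-1 and B14_0-2 were below every B15_0 library. Os03g0778100, for example, had 460, 470 and 1222 CPM in B14_0, against 665 to 731 CPM in B15_0.

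Late feeding was compared with non-infested plants of each line by the quasi-likelihood test of edgeR, with p-values adjusted by the Benjamini-Hochberg procedure over all genes tested (edgeR adjusted p), and a gene was called at an adjusted p below 0.05. In B14_late/B14_0, 25 of the 33 genes were down-regulated and 0 up-regulated, where 20.5% of all genes tested were down-regulated and 20.5% up-regulated. In B15_late/B15_0, 31 genes were down-regulated and 0 up-regulated, against 30.3% and 31.6% of all genes. In B1415_late/B1415_0, 25 genes were down-regulated and 1 up-regulated, against 18.6% and 18.6% of all genes. In RP_late/RP_0, 23 genes were down-regulated and 5 up-regulated, against 29.9% and 29.4% of all genes. In each line the share of the set that was down-regulated was above that of all genes tested, and in the 3 NILs only Os07g0147500, in B1415, was up-regulated.

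The size of the late decrease differed more than the number of genes. The median log2 fold change of the 33 genes was -1.16 in B14, -1.02 in B15, -0.50 in B1415 and -0.36 in RP, while the median over all genes lay within 0.06 of 0 in each of these comparisons. The decrease was over 2-fold for 22 genes in B14, 20 in B15, 3 in B1415 and 4 in RP, where 13.0%, 13.9%, 4.48% and 7.62% of all genes tested were called lower by over 2-fold in those lines. Without B14_0-3 the median in B14 was -0.89, with 27 genes down-regulated and 0 up-regulated, where 27.2% and 27.0% of all genes were. In that fit 14 genes were lower by over 2-fold, and the share of all genes past 2-fold was not counted. Leaving out B14_late-2 or B14_late-3 reduced the count in B14 to 12, with medians of -1.12 and -1.08, where 12.4% and 12.0% of all genes were then down-regulated, and leaving out B1415_0-1 reduced that in B1415 to 16, where 12.2% of all genes were. With total-count scaling in B15_late/B15_0 the median of all genes was 0.22, with 9634 genes up-regulated and 5561 down-regulated, against 7663 and 7350 with TMM, and of the 33 genes 30 were down-regulated and 1 up-regulated (median -0.81).

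There were 23 genes that were down-regulated in all 4 of these late comparisons, which have no library in common (23 also without B14_0-3), and 0 that were up-regulated in all 4. Among the 23073 genes tested in all 4, 12.4% were down-regulated and 10.7% up-regulated in each. The 23 comprised 9 of 9 PSI subunit loci, 6 of 8 LHCB loci, 3 of 4 electron carriers, 3 of 6 PSII subunit loci and 2 of 6 LHCA loci. The PSI subunit list, which holds nuclear loci only and none of the plastid-encoded subunits of photosystem I, was thus down-regulated as a whole in every line. Its median log2 fold change was -1.39 in B14 (-0.92 without B14_0-3), -1.02 in B15, -0.48 in B1415 and -0.36 in RP.

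Os12g0420400, the PSI subunit locus of highest mean CPM (a ranking by counts that takes no account of gene length), had 877, 659 and 607 CPM in B14_late, against 1030, 1108 and 1901 CPM in B14_0. It had 764, 999 and 909 CPM in B15_late, against 2042, 1739 and 2063 CPM in B15_0. In RP_late it had 994, 886 and 836 CPM, against 1075, 1042 and 1002 CPM in RP_0. The late libraries lay below the non-infested libraries in each of these lines, by a wide margin in B15 and a narrow margin in RP, and the log2 fold changes were -0.89 ± 0.288 in B14, -1.13 ± 0.138 in B15 and -0.19 ± 0.076 in RP (± SE, edgeR adjusted p = 0.0435, 1.62e-05 and 0.0362). Without B14_0-3 the value in B14 was -0.59.

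Os01g0869800, on the list of PSII subunits, was the only gene of the set to fall by over 2-fold in all 4 lines. It had 86.9, 61.9 and 45.6 CPM in B14_late, against 364, 381 and 540 CPM in B14_0, and 110, 154 and 168 CPM in B15_late, against 589, 519 and 581 CPM in B15_0. In B1415_late it had 164, 167 and 109 CPM, against 412, 471 and 371 CPM in B1415_0, and in RP_late 110, 111 and 102 CPM, against 370, 377 and 346 CPM in RP_0. No late library reached any non-infested library. The log2 fold change was -2.69 ± 0.283 in B14, -1.97 ± 0.152 in B15, -1.50 ± 0.172 in B1415 and -1.75 ± 0.072 in RP (edgeR adjusted p = 0.000573, 6.25e-07, 0.00026 and 4.09e-17). In B14 it was -2.53 without B14_0-3.

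The LHCB list, the antenna of photosystem II, held the gene with the largest late decrease of the set in B15 and, with B14_0-3 included, in B14. Os01g0720500 had 229, 152 and 140 CPM in B14_late, against 893, 958 and 1765 CPM in B14_0, and 459, 624 and 539 CPM in B15_late, against 2639, 1894 and 2647 CPM in B15_0. It had 463, 531 and 541 CPM in B1415_late, against 829, 1112 and 730 CPM in B1415_0, and 384, 343 and 300 CPM in RP_late, against 904, 807 and 783 CPM in RP_0. The groups did not overlap in any line. The log2 fold change was -2.77 ± 0.344 in B14, -2.14 ± 0.166 in B15, -0.79 ± 0.163 in B1415 and -1.27 ± 0.084 in RP (edgeR adjusted p = 0.00109, 6.52e-07, 0.00429 and 7.47e-13). In B14 it was -2.42 without B14_0-3, when Os01g0869800 fell slightly more.

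Os03g0592500, the chlorophyll a/b binding protein gene with the primers above, was down-regulated late in all 4 lines. It had 188, 138 and 133 CPM in B14_late, against 357, 367 and 557 CPM in B14_0, and 205, 265 and 208 CPM in B15_late, against 765, 662 and 803 CPM in B15_0. In B1415_late it had 181, 214 and 223 CPM, against 407, 500 and 356 CPM in B1415_0, and in RP_late 224, 195 and 180 CPM, against 319, 322 and 328 CPM in RP_0. Late libraries were below non-infested libraries throughout. The log2 fold change was -1.45 ± 0.238 in B14, -1.72 ± 0.134 in B15, -1.02 ± 0.147 in B1415 and -0.68 ± 0.075 in RP (edgeR adjusted p = 0.00318, 6.71e-07, 0.000722 and 1.26e-08), and that in B14 was -1.25 without B14_0-3.

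Of the other LHCB loci, Os07g0558400 and Os11g0242800 fell by 2.05 and 1.99 on the log2 scale in B14_late/B14_0, and Os07g0562700 and Os04g0457000 by 1.01 and 1.37. Without B14_0-3 these log2 fold changes were -1.82, -1.71, -0.62 and -1.16. Os01g0600900, the LHCB locus of highest mean CPM, was called late in B15 alone, or in B15 and B14 (-0.56, edgeR adjusted p = 0.0284) without B14_0-3, and Os09g0346500 in B15 and B1415. Os01g0600900 had 1397, 1861 and 1340 CPM in B15_late, against 3782, 3084 and 4185 CPM in B15_0, and 1501, 1414 and 1170 CPM in RP_late, against 1247, 1190 and 1179 CPM in RP_0. The B15 groups were far apart, whereas the RP groups overlapped. The log2 fold change was -1.26 ± 0.164 in B15 and 0.19 ± 0.083 in RP (edgeR adjusted p = 2.57e-05 and 0.0553).

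Among the electron carriers, Os06g0101600, the locus of highest mean CPM on that list, was down-regulated late in all 4 lines. It had 673, 510 and 463 CPM in B14_late, against 1370, 1399 and 2019 CPM in B14_0, and 759, 978 and 902 CPM in B15_late, against 2385, 1944 and 2190 CPM in B15_0. In B1415_late it had 887, 883 and 830 CPM, against 1518, 1605 and 1361 CPM in B1415_0, and in RP_late 840, 802 and 722 CPM, against 1471, 1346 and 1335 CPM in RP_0. Late and non-infested libraries were apart in every line, and the log2 fold changes were -1.51 ± 0.238, -1.30 ± 0.139, -0.78 ± 0.120 and -0.80 ± 0.077 in B14, B15, B1415 and RP (edgeR adjusted p = 0.00273, 5.66e-06, 0.00103 and 1.16e-09), and -1.34 in B14 without B14_0-3.

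**Figure D2:**
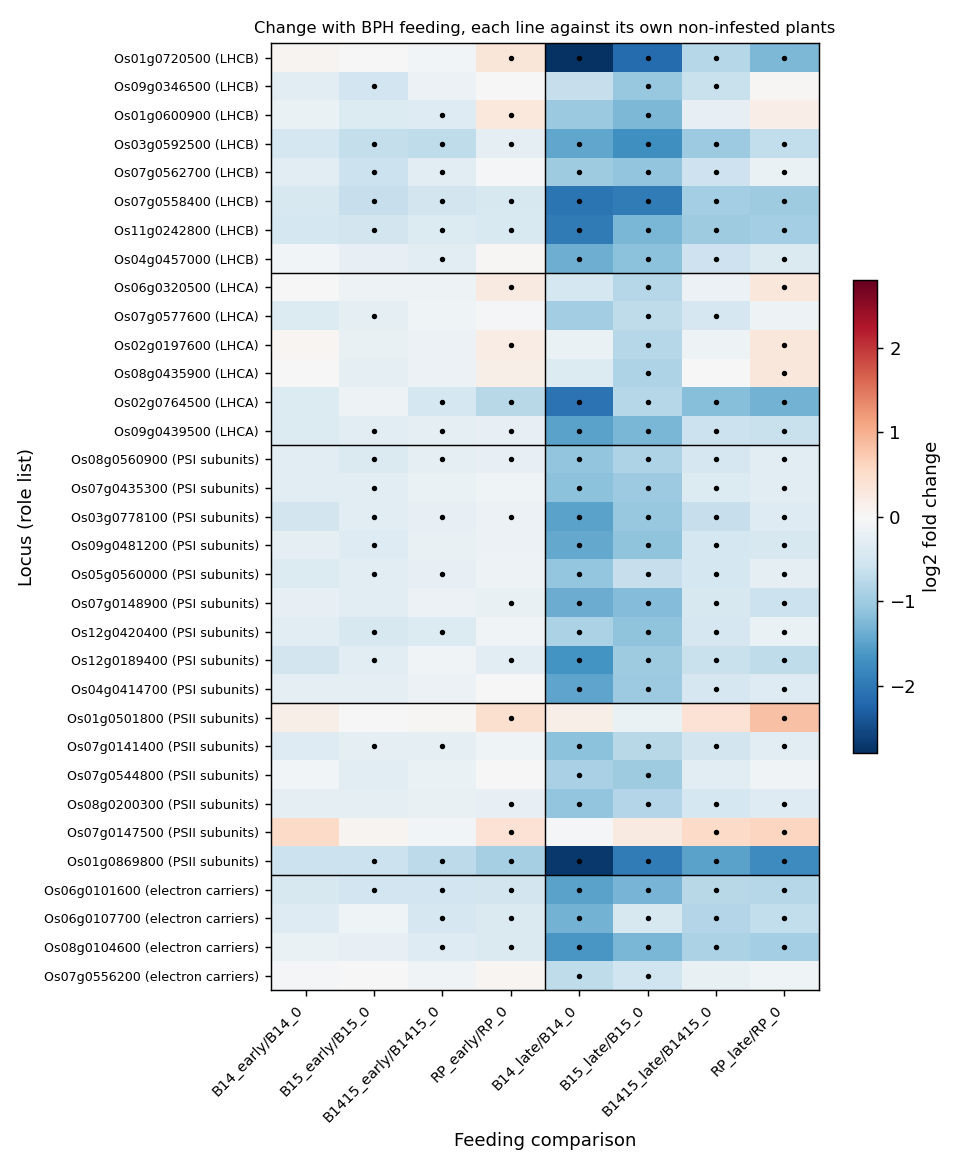
Log2 fold change (colour) of each of the 33 loci (rows, by role list) in the 4 early and 4 late feeding comparisons (columns), a black dot marking an edgeR adjusted p below 0.05. The late columns of B14 and B15 are the darkest blue (medians -1.16 and -1.02), and red cells with dots occur in the RP columns and, late, in B1415 for Os07g0147500.

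Not every member fell. In RP_late/RP_0 the 5 up-regulated genes were Os01g0501800 and Os07g0147500 on the PSII list and Os06g0320500, Os02g0197600 and Os08g0435900 on the LHCA list, the antenna of photosystem I. Os01g0501800 had 2402, 1969 and 1981 CPM in RP_late, against 1205, 1211 and 1191 CPM in RP_0, which did not overlap (log2 fold change 0.83 ± 0.081, edgeR adjusted p = 1.66e-09). In B15 the same gene had 1861, 2424 and 1746 CPM in B15_late, against 2344, 2049 and 2466 CPM in B15_0, and these groups overlapped (-0.18 ± 0.148, edgeR adjusted p = 0.297). RP_0 was the lowest of the 12 groups for this gene.

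Os07g0147500 had 811, 858 and 795 CPM in RP_late, against 599, 521 and 524 CPM in RP_0, and 507, 530 and 783 CPM in B1415_late, against 413, 436 and 415 CPM in B1415_0. The groups were apart in both lines, although the B1415_late libraries ranged widely, and the log2 fold changes were 0.59 ± 0.076 in RP and 0.54 ± 0.165 in B1415 (edgeR adjusted p = 1.55e-07 and 0.0278). In B14_late it had 413, 365 and 396 CPM, against 396, 386 and 442 CPM in B14_0, and the groups overlapped.

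The LHCA loci rose by less. Os06g0320500, the LHCA locus of highest mean CPM, had 1467, 1355 and 1222 CPM in RP_late, against 1097, 1116 and 1049 CPM in RP_0 (log2 fold change 0.32 ± 0.077, edgeR adjusted p = 0.000848). It had 1188, 1604 and 1241 CPM in B15_late, against 2348, 2003 and 2655 CPM in B15_0 (-0.80 ± 0.153, edgeR adjusted p = 0.000576). The groups did not overlap in either line and the direction was opposite. Os02g0197600 and Os08g0435900 had log2 fold changes of 0.33 and 0.31 in RP_late/RP_0, and -0.80 and -0.86 in B15_late/B15_0. The other LHCA loci included Os02g0764500, which had 5.73, 4.24 and 4.04 CPM in B14_late, against 20.4, 21.4 and 18.8 CPM in B14_0, and was down-regulated late in all 4 lines.

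**Figure D3:**
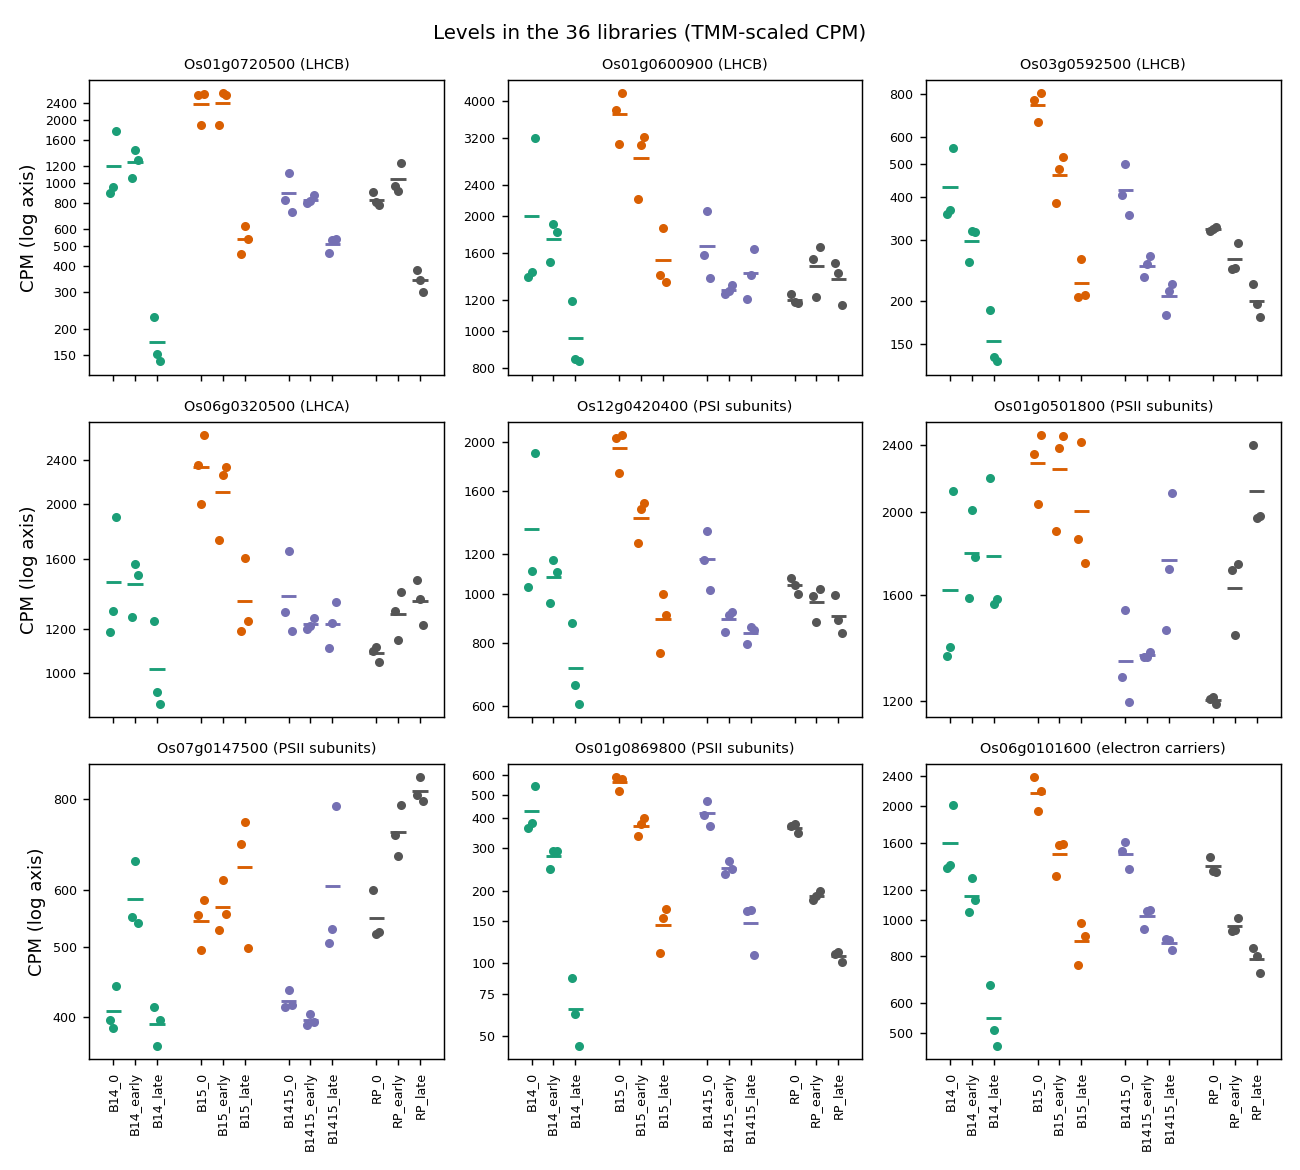
CPM on a log axis of 9 members (panels, with role list) in the 36 libraries, by line and feeding stage, with 1 point per library and a bar at the mean of 3. Most panels step down from the non-infested to the late stage in each line, whereas Os01g0501800 and Os07g0147500 rise in RP, to 1969 to 2402 CPM and 795 to 858 CPM in RP_late.

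Early feeding was followed by smaller changes. In B15_early/B15_0, 17 genes were down-regulated and 0 up-regulated (12.4% and 11.5% of all genes), and in B1415_early/B1415_0, 17 were down-regulated and 0 up-regulated (13.1% and 13.9% of all genes). In RP_early/RP_0, 14 genes were down-regulated and 6 up-regulated (21.7% and 21.3% of all genes). The median log2 fold changes were -0.30, -0.23 and -0.13. Leaving out B15_0-1, B15_0-3 or B15_early-2 gave 9 genes in B15 and leaving out B15_early-1 gave 10, where 7.69% to 10.1% of all genes were then down-regulated. Leaving out B1415_early-1 gave 8 genes in B1415, and leaving out B1415_0-1 or B1415_early-3 gave 9, where 8.09% to 9.38% of all genes were. With total-count scaling in B15_early/B15_0, 3768 of all genes were up-regulated and 2046 down-regulated, against 2772 and 2999 with TMM, and 13 of the 33 genes were down-regulated and 0 up-regulated.

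In B14_early/B14_0, 0 of the 33 genes were called by edgeR, where 0.327% of all genes were down-regulated and 1.22% up-regulated. There were 5 members at an unadjusted p below 0.05, as were 14% of all genes. DESeq2 called 2, 1 in each direction, where it called 1.64% of all genes lower and 3.57% higher. The median log2 fold change was -0.30, but without B14_0-3 it was 0.10, with 3 genes down-regulated and 4 up-regulated, where 13.0% and 14.3% of all genes were. The direction of the early change in B14 therefore rested on that library.

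The same 8 genes were down-regulated early in B15, B1415 and RP, where 6.84% of the 23002 genes tested in all 3 comparisons were, and 0 were up-regulated in all 3, where 6.89% of those genes were. The 8 were Os03g0592500, Os07g0558400 and Os11g0242800 on the LHCB list, Os09g0439500 on the LHCA list, Os08g0560900 and Os03g0778100 on the PSI list, Os01g0869800 on the PSII list, and Os06g0101600 among the electron carriers. Os01g0869800 had 335, 378 and 399 CPM in B15_early, 236, 266 and 245 CPM in B1415_early, and 182, 191 and 199 CPM in RP_early. These libraries lay between the non-infested and the late libraries of their line. The log2 fold change against the non-infested plants was -0.59 ± 0.094 in B15, -0.73 ± 0.088 in B1415 and -0.92 ± 0.066 in RP (edgeR adjusted p = 0.000315, 1.71e-05 and 7.36e-11).

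The 6 genes up-regulated early in RP were Os01g0501800 (log2 fold change 0.45), Os07g0147500 (0.41), Os01g0720500 (0.34), Os01g0600900 (0.30), Os06g0320500 (0.25) and Os02g0197600 (0.22). Os01g0720500, which fell late in all 4 lines, had 961, 917 and 1241 CPM in RP_early, against 904, 807 and 783 CPM in RP_0. The groups were apart by a narrow margin (± SE 0.090, edgeR adjusted p = 0.00409). In B15 and B1415 its early and non-infested libraries overlapped. In B14 they overlapped through B14_0-3 alone: it had 1050, 1433 and 1288 CPM in B14_early, against 893, 958 and 1765 CPM in B14_0, and without B14_0-3 it was up-regulated (log2 fold change 0.47 ± 0.118, edgeR adjusted p = 0.00987).

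Before feeding, the NILs were compared with RP. In B15_0/RP_0, 30 of the 33 genes were up-regulated and 2 down-regulated, where 35.7% of all genes were up-regulated and 36% down-regulated, so B15_0 and RP_0 differed widely outside this set as well. The median log2 fold change of the set was 0.64, and 7 genes were higher by over 2-fold, where 12.6% of all genes were. All 8 LHCB loci (median 1.05), 9 of 9 PSI loci (0.61), 5 of 6 PSII loci (0.49), 5 of 6 LHCA loci (0.89) and 3 of 4 electron carriers (0.39) were up-regulated. With total-count scaling in place of TMM, the median of all genes in this comparison was -0.21, with 6262 genes up-regulated and 10665 down-regulated, against 8516 and 8608 with TMM, and of the 33 genes 25 were up-regulated and 3 down-regulated (median 0.41).

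Os01g0600900 was the most strongly raised, with 3782, 3084 and 4185 CPM in B15_0, against 1247, 1190 and 1179 CPM in RP_0 (log2 fold change 1.58 ± 0.094, edgeR adjusted p = 1.99e-10). Os01g0720500 had 2639, 1894 and 2647 CPM in B15_0, against 904, 807 and 783 CPM in RP_0 (1.50 ± 0.108, edgeR adjusted p = 1.34e-09). Every B15_0 library was above every RP_0 library for both genes. The 2 genes down-regulated in B15_0 were Os06g0107700, an electron carrier with 423, 451 and 404 CPM in B15_0, against 556, 589 and 564 CPM in RP_0 (-0.45 ± 0.072, edgeR adjusted p = 1.82e-05), and Os02g0764500, with 17.3, 19.1 and 16.0 CPM in B15_0, against 23.7, 19.0 and 21.7 CPM in RP_0. The groups of Os02g0764500 overlapped (-0.33 ± 0.113, edgeR adjusted p = 0.0154).

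The other NILs differed less from RP before feeding. In B1415_0/RP_0, 5 genes were up-regulated (3.93% of all genes) and 1 down-regulated (2.88% of all genes), with a median log2 fold change of 0.13. The 5 were Os01g0600900, Os09g0346500 and Os03g0592500 on the LHCB list and Os06g0320500 and Os02g0197600 on the LHCA list, with log2 fold changes of 0.34 to 0.48, and the gene that was lower was Os07g0147500 (-0.36). This count rested on single libraries: it was 1 without RP_0-1, 2 without RP_0-2, RP_0-3 or B1415_0-1, and 12 without B1415_0-3. Among all genes, 1.72% to 2.41% were then up-regulated and 0.743% to 1.39% down-regulated without the first 4 of these libraries, and 4.93% and 4.28% without B1415_0-3.

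In B14_0/RP_0, 0 of the 33 genes were called by edgeR, where 0.0636% of all genes were up-regulated and 0.0297% down-regulated. There were 2 members at an unadjusted p below 0.05, as were 11.3% of all genes, and DESeq2 called 1 lower, where it called 0.284% of all genes lower. The median log2 fold change was 0.36, and without B14_0-3 it was 0.02, with 4 genes up-regulated and 2 down-regulated, where 5.53% and 6.26% of all genes were. Os01g0600900 showed the pattern, with 1382, 1424 and 3188 CPM in B14_0, against 1247, 1190 and 1179 CPM in RP_0, the value of 3188 CPM being that of B14_0-3.

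**Figure D4:**
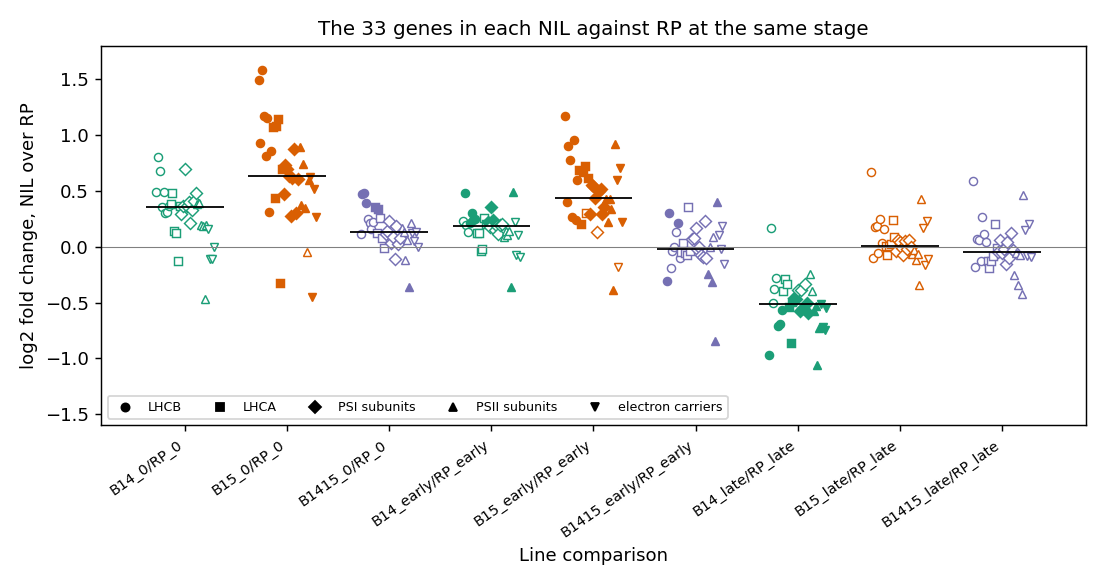
Log2 fold change of the 33 loci (points, shape by role list, filled where the edgeR adjusted p was below 0.05) in each NIL over RP at the same stage (x axis), with a black bar at the median. The medians are 0.64 in B15_0/RP_0 and 0.44 in B15_early/RP_early, -0.51 in B14_late/RP_late, and near 0 in B15_late/RP_late and B1415_late/RP_late.

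After early feeding, 29 genes were up-regulated and 1 down-regulated in B15_early/RP_early (28.7% and 29.7% of all genes), with a median log2 fold change of 0.44. In B14_early/RP_early, 9 were up-regulated and 1 down-regulated (16.8% and 19.8% of all genes, median 0.19), and in B1415_early/RP_early 3 were up-regulated and 4 down-regulated (9.31% and 9.30% of all genes, median -0.02). The count of 10 in B14 was 4 without RP_early-1, B14_early-2 or B14_early-3 and 6 without RP_early-2, and the count of 7 in B1415 was 4 without RP_early-3 or B1415_early-2. In these fits 11% to 12.7% of all genes were up-regulated and 15.6% to 15.9% down-regulated in B14, and 5.93% to 6.28% and 5.54% to 7.03% in B1415. With total-count scaling the median of all genes in B15_early/RP_early was -0.09, with 5545 genes up-regulated and 8449 down-regulated, against 7003 and 7232 with TMM. Of the 33 genes, 23 were then up-regulated and 2 down-regulated. Os01g0720500 had 1895, 2683 and 2642 CPM in B15_early, against 961, 917 and 1241 CPM in RP_early, and was the gene with the largest difference there (1.17 ± 0.128, edgeR adjusted p = 4.95e-07).

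Os07g0147500 was lower in all 3 NILs at this stage, against the direction of most called genes of the set in B14 and B15. It had 550, 657 and 539 CPM in B14_early, 527, 618 and 555 CPM in B15_early and 390, 404 and 394 CPM in B1415_early, against 714, 667 and 784 CPM in RP_early. All NIL libraries were below all RP libraries, and the log2 fold changes were -0.36 ± 0.090, -0.39 ± 0.089 and -0.85 ± 0.069 (edgeR adjusted p = 0.00592, 0.00111 and 9.37e-08). Its log2 fold change against RP was negative in all 9 line comparisons, but was called in B1415_0, in the 3 early comparisons and in B14_late, and these comparisons share the RP libraries of their stage.

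After late feeding, B14 lay below RP. In B14_late/RP_late, 21 genes were down-regulated and 0 up-regulated, where 4.62% of all genes were down-regulated and 5.98% up-regulated, and the median log2 fold change was -0.51, with 32 of 33 values negative. The largest differences were those of Os07g0147500 (-1.06) and Os01g0720500 (-0.97), and Os09g0346500 alone had a positive value (0.17), which was not called. The count depended on the libraries: it was 32 without B14_late-1, 6 without B14_late-3, 7 without B14_late-2 or RP_late-2, 8 without RP_late-1 and 12 without RP_late-3, while the median ran between -0.67 and -0.43. The share of all genes that were down-regulated moved with it, being 11.6% without B14_late-1 and 1.44% to 2.45% without any of the other 5 libraries.

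In B15_late/RP_late and B1415_late/RP_late, 0 of the 33 genes were called by edgeR, where 0.496% of all genes were up-regulated and 0.217% down-regulated in B15, and 0.0124% and 0.0248% in B1415. At an unadjusted p below 0.05 there were 3 and 4 members, and 12.2% and 13.1% of all genes. DESeq2 called 1 higher in each, where it called 1.19% and 0.615% of all genes higher. Without B1415_late-3 edgeR called 5 members in B1415, 3 higher and 2 lower, where 6.18% of all genes were then higher and 8.55% lower, so the calls increased across all genes. Without B15_late-1 it called 2 higher in B15, and without B15_late-3 it called 1, where 0.546% and 1.03% of all genes were higher. The log2 fold changes ran between -0.34 and 0.67 in B15 and between -0.43 and 0.59 in B1415, with medians of 0.01 and -0.04. Before feeding the median difference between B15 and RP had been 0.64.

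A line-by-stage interaction term, fitted over 12 libraries, was used to ask if a NIL and RP changed unequally with late feeding. In B15, 27 of the 33 genes had a more negative late change than in RP and 0 a more positive one, where 23.8% of all genes were more negative and 22.5% more positive. The median of the interaction was -0.68 on the log2 scale, and 7 genes were past 2-fold, where 8.58% of all genes were. The 27 genes held 7 of 8 LHCB, 5 of 6 LHCA, 8 of 9 PSI, 4 of 6 PSII loci and 3 of 4 electron carriers. Os01g0600900 had the largest value (-1.47 ± 0.188, edgeR adjusted p = 2.84e-05), followed by the 3 LHCA loci that were up-regulated late in RP (-1.14 to -1.19). The test contains the B15_0 and RP_0 libraries, so it is not separate from the difference between the lines before feeding. With total-count scaling the median of all genes in it was 0.24, with 8429 genes more positive and 3096 more negative, against 5659 and 5981 with TMM, and 18 of the 33 genes were more negative and 2 more positive (median -0.38).

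In B14 the late interaction was negative for all 33 genes, with a median of -0.81, yet 0 were called by edgeR, where 0.171% of all genes were called more negative and 0.0675% more positive. There were 32 members at an unadjusted p below 0.05 (smallest edgeR adjusted p = 0.0856), as were 17.6% of all genes. DESeq2 called 8 more negative, where it called 2.20% of all genes so, and a single fit of all 36 libraries called 29, where it called 5.72% of all genes so. Without B14_0-3 the median was -0.53 and 8 were called more negative, where 2.38% of all genes were and 1.20% were more positive, and without B14_late-1 it was -0.97 and 6 were called, where 1.13% of all genes were more negative. With total-count scaling 40 of all genes were more positive and 54 more negative, against 17 and 43 with TMM, and 0 of the 33 were called. In B1415, 0 were called late, where 0% of all genes were called more negative and 0.0279% more positive, with a median of -0.13. There 8 members were at an unadjusted p below 0.05, as were 11.4% of all genes, and DESeq2 called 1 more negative, where it called 0.124% of all genes so. Without B1415_late-3, 4 were called more negative, where 2.99% of all genes were more negative and 1.65% more positive, against the 0% and 0.0279% with it.

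**Figure D5:**
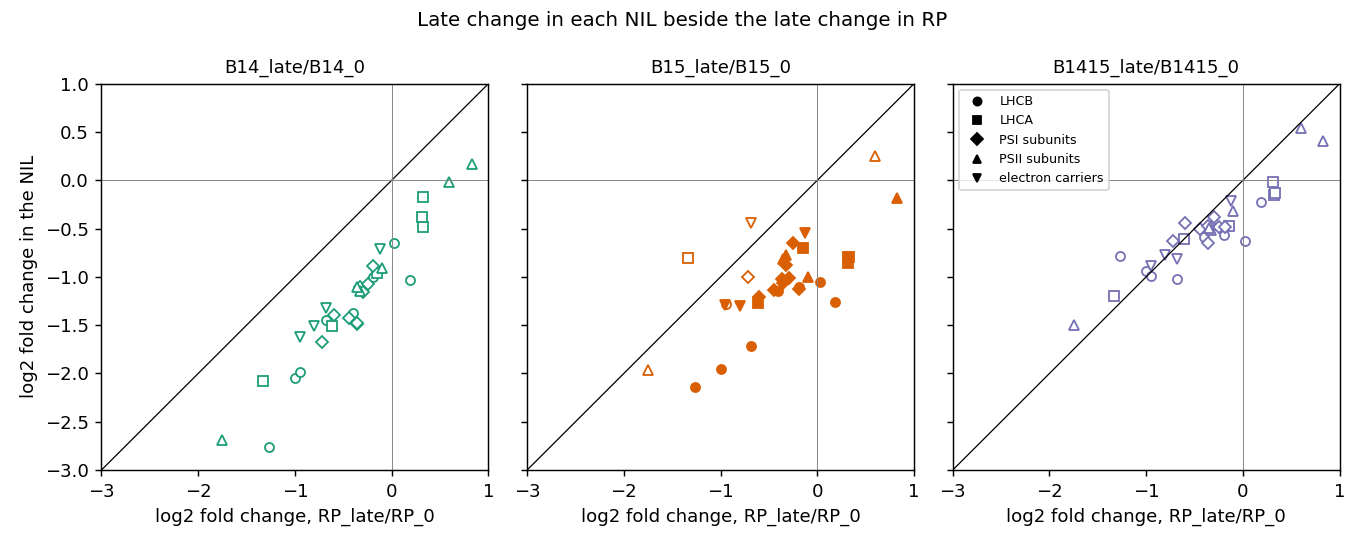
Late log2 fold change of the 33 loci in B14, B15 and B1415 (y axis, panels) against the late log2 fold change in RP (x axis), with the line of equal change; shapes are role lists and filled points had an interaction at an edgeR adjusted p below 0.05. All B14 points and 31 of 33 B15 points lie below the line, 27 of them filled in B15 and 0 in B14, while 24 of 33 B1415 points lie below it and 0 are filled.

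The early interactions were small. In B15, 4 genes had a more negative early change than in RP, where 3.14% of all genes did and 1.37% had a more positive one: Os01g0600900 (-0.72), Os09g0346500, Os07g0562700 and Os01g0501800 (-0.50). The count was 2 without RP_0-2, RP_0-3, RP_early-1, RP_early-3, B15_0-1 or B15_0-3. It was 6 without RP_early-2, 8 without B15_early-3 and 13 without B15_0-2. Without RP_early-2 and without B15_0-2, 1 gene each was more positive, where 2.68% and 3.08% of all genes were. The share of all genes that were more negative was 1.14% to 1.59% in the fits with 2. It was 5.15%, 3.69% and 6.45% in the fits with 6, 8 and 13. With total-count scaling 3 genes were more negative and 3 more positive, with 855 of all genes more positive and 363 more negative, against 343 and 787 with TMM. In B1415, 2 genes were more negative, Os01g0600900 (-0.68) and Os07g0147500 (-0.49), where 0.307% of all genes were and 0.339% were more positive, a count that was 0 without RP_0-2, RP_0-3, RP_early-1, RP_early-3, B1415_0-1 or any B1415_early library, 1 without RP_0-1 and 4 without RP_early-2, where 0.0863% to 0.173% of all genes were more negative in the fits with 0 and 0.712% in that with 4. With total-count scaling the all-gene counts there were 112 more positive and 53 more negative, against 85 and 77 with TMM. In B14, 0 were called, where 0.00808% of all genes were more negative and 0.00404% more positive, with 0 at an unadjusted p below 0.05 and 0 by DESeq2, and 2 were called more positive without B14_0-3, where 2.51% of all genes were more positive and 6.32% more negative.

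Because B15_0 differed from RP_0, the infested plants of each NIL were also compared with RP_0. Late, B14 had 29 genes below RP_0 and 1 above (31.4% and 30.5% of all genes), with a median log2 fold change of -0.83. B15 had 19 below and 4 above (24.0% and 24.0% of all genes, median -0.37), and B1415 had 23 below and 1 above (20.7% and 21.3% of all genes, median -0.41). RP itself had a median of -0.36. Early, B14 had 9 genes above RP_0 and 5 below (24.7% and 24.3% of all genes), B15 had 22 above and 2 below (32.1% and 31.7% of all genes), and B1415 had 4 above and 17 below (21.3% and 20.5% of all genes). Most of the 33 genes were thus above RP_0 in B15_0 and B15_early, and most were below it in B15_late.

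Other genes that serve the same process were followed in lists chosen in the same way. The late counts of these and the following lists stand beside the shares of all genes tested. Those shares were 20.5%, 30.3%, 18.6% and 29.9% down-regulated in B14, B15, B1415 and RP, and 20.5%, 31.6%, 18.6% and 29.4% up-regulated. The list of chlorophyll synthesis enzymes, of which 20 of 21 were tested, had 16 genes down-regulated late in B14, 15 in B15, 16 in B1415 and 17 in RP, with 1 up-regulated, in RP, and medians of -1.09, -0.71, -0.61 and -0.69. OsCRD1 (Os01g0279100), the cyclase that closes the fifth ring of chlorophyll, had 65.2, 53.0 and 47.1 CPM in B14_late, against 107, 114 and 134 CPM in B14_0, and 70.1, 65.0 and 60.6 CPM in RP_late, against 98.8, 110 and 117 CPM in RP_0. The groups were apart in both lines (log2 fold change -1.07 ± 0.166 and -0.72 ± 0.078, edgeR adjusted p = 0.00255 and 9.08e-09), and -1.01 in B14 without B14_0-3. In B15_0/RP_0 its log2 fold change was 0.06 ± 0.086 and was not called (edgeR adjusted p = 0.549).

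The Calvin cycle list, the enzymes that fix carbon dioxide with the products of the light reactions, had 10 of 12 genes down-regulated late in B14, 10 in B15, 8 in B1415 and 10 in RP, with 1 up-regulated, in RP. Of the other nuclear photosynthesis genes, 8 of 14 tested were down-regulated late in B14, 13 of 15 in B15, 7 of 14 in B1415 and 7 of 14 in RP, with 1 up-regulated in each of B14, B15 and RP. On this list the early light-inducible protein gene Os01g0246400 had 0.810, 0.681 and 0.510 CPM in B15_late, against 3.10, 4.76 and 3.81 CPM in B15_0. It was low in every library but without overlap between these groups (log2 fold change -2.54 ± 0.324, edgeR adjusted p = 2.28e-05). Of the list of regulators of photosynthesis genes, 1 was down-regulated late in each line (of 4 tested in B14, B15 and RP and 5 in B1415), which was near the share of all genes. Up-regulated were 0, 1, 1 and 2 in B14, B15, B1415 and RP. The photosystem and cytochrome genes of the plastid genome held at most 0.00174% of the counts of a library and were not compared.

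The chlorophyll breakdown list moved in the opposite direction, with 6 of 6 genes up-regulated late in B14, 5 in B15, 6 in B1415 and 6 in RP and 0 down-regulated. NYC1 (Os01g0227100), the chlorophyll b reductase that starts the dismantling of antenna complexes, had 235, 299 and 324 CPM in B14_late, against 139, 127 and 78.9 CPM in B14_0, and 228, 219 and 260 CPM in RP_late, against 149, 149 and 153 CPM in RP_0. All late libraries were above the non-infested ones in these lines (log2 fold change 1.37 ± 0.236 and 0.66 ± 0.073, edgeR adjusted p = 0.00386 and 1.28e-08), and the value in B14 was 1.10 without B14_0-3. In B15_0 it had 80.9, 90.6 and 75.5 CPM, below the RP_0 libraries (-0.90 ± 0.079, edgeR adjusted p = 1.30e-08).

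Clock genes and markers of dividing tissue moved alongside. Of 9 clock genes, 5 were up-regulated late in B14, 8 in B15, 6 in B1415 and 7 in RP and 0 were down-regulated, while in B15_0/RP_0 8 were down-regulated and 1 up-regulated (median log2 fold change -0.92). Their summed level was 2009 to 2500 CPM in B14_late, 1971 to 2227 CPM in B15_late, 2116 to 2326 CPM in B1415_late and 2297 to 2480 CPM in RP_late. In the non-infested plants it was 1115 to 1790 CPM in B14_0, with the lowest value in B14_0-3, 1044 to 1171 CPM in B15_0, 1665 to 1944 CPM in B1415_0 and 1932 to 2084 CPM in RP_0. GI (Os01g0182600), a clock component, had 517, 614 and 521 CPM in B15_0, against 1061, 1128 and 1205 CPM in RP_0. It weighed most in these sums, with up to 1447 CPM, against up to 367 CPM for Os03g0284100, the next highest. The clock gene higher in B15_0 was Os01g0971800, with 182, 182 and 193 CPM, against 151, 151 and 148 CPM in RP_0. B14_0-3 and the B15_0 libraries had the 4 lowest clock sums of the 36 libraries and held 2.90% to 3.22% of their counts on the photosystem genes. Of the other libraries the highest share was 2.91%, in B15_early-3, which lay above the 2.90% of B15_0-2. The part of the clock genes in the differences was not tested.

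Of 6 markers of dividing tissue and meristem, 4 were down-regulated late in each line (of 4 tested in B14 and RP and 5 in B15 and B1415), with 1 up-regulated, in B1415. In B15_0/RP_0, 4 of 4 tested were up-regulated, where 35.7% of all genes were. Their summed level was 25.5 to 34.1 CPM in B14_late, 40.2 to 74.8 CPM in B15_late, 45.3 to 66.5 CPM in B1415_late and 40.6 to 55.0 CPM in RP_late, against 106 to 157 CPM in B14_0, 124 to 149 CPM in B15_0, 119 to 126 CPM in B1415_0 and 90.1 to 97.9 CPM in RP_0. CDKB2 (Os08g0512600), a cell cycle kinase, had 6.63, 4.24 and 3.80 CPM in B14_late, against 20.4, 20.4 and 38.1 CPM in B14_0 (log2 fold change -2.40 ± 0.346, and -2.08 without B14_0-3, edgeR adjusted p = 0.00191 and 2.70e-05). For CDKB2 and for the sum, the late libraries were lower in every line. Os03g0727000 and Os07g0129700, at most 2.15 and 2.01 CPM in any library, did not follow this. Os03g0727000 had 2.15, 0.85 and 0.72 CPM in B1415_late, against 0, 0 and 0.07 CPM in B1415_0. In RP_late it had 0.36, 0.56 and 0.29 CPM, against 0, 0.06 and 0 CPM in RP_0. Os07g0129700 was likewise higher late in B1415 and RP, and both genes overlapped in B14 and B15. Of the 6 markers, Os03g0727000 was at 0 in 4 of the 36 libraries. Without B14_0-3, the late comparison of B14 had 17 chlorophyll synthesis, 10 Calvin cycle, 9 other nuclear photosynthesis and 4 dividing tissue genes down-regulated, and 6 chlorophyll breakdown and 6 clock genes up-regulated. In that fit 27.2% of all genes were down-regulated and 27.0% up-regulated. The part of tissue composition in the changes of the photosystem genes was not tested.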

How the data were processed

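RNA-seq counts of 36 rice leaf sheath libraries (3 biological replicates in each of 12 groups) were used. The authors deposited whole-number counts per gene without normalization, made with HISAT2 2.0.4 (version from the submitters' processing notes) against IRGSP-1.0 and HTseq, and the annotation release and strand setting are not given in the sources used here. Methods and labels differ in the library kit (poly-A selection or rRNA depletion), in the sequencer and in an infestation time (6 or 60 h). All columns were used.

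The tests were run in edgeR 4.0.16 under R 4.3.3, which loads limma 3.58.1. For each of the study's 17 comparisons a fit used only its 6 libraries, after filterByExpr (minimum count 10) and TMM scaling, and the quasi-likelihood test was applied, and a gene was called at a Benjamini-Hochberg adjusted p below 0.05 over all genes tested. Calls over 2-fold were counted beside it. The 6 interactions of line and stage used 12 libraries. The code was tested on simulated data. CPM were scaled by TMM over all 36 libraries, and no gene lengths were used, so levels are compared within a gene and not between genes. Counts of 10601967 to 18692187 per library limit precision for low genes. The p-values set a difference between groups, or an interaction, against the spread between the 3 replicates of each group.

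Members and lists were chosen with earlier results of these data known, and the plastid list was added once the names in the table were seen. All members could be named, with values per library for the member of highest mean CPM in each role list, the extremes of a comparison and members called against the majority, and, of the other lists, genes called in all 4 late comparisons and extreme genes. Alternatives were DESeq2 1.42.0, its size factors, total-count scaling, no filter, the replicate block, a single fit of 36 libraries, thinning to the smallest total, RP_0 as baseline, the call at an unadjusted p below 0.05 with a 2-fold change, and each library left out. The replicate numbers were checked for pairing, and libraries were treated as unpaired. Promoter motifs were not analysed.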

Additional observations from a re-analysis of the deposited data

Results flagged for a closer look

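Members whose change with feeding differed from that in RP by the interaction test (quasi-likelihood test of edgeR, Benjamini-Hochberg adjusted p) numbered 27 in B15 late. All had a more negative change in B15 than in RP, where 23.8% of all genes were more negative and 22.5% more positive. After early feeding they numbered 4 in B15 and 2 in B1415, again all more negative in the NIL, where 3.14% and 0.307% of all genes were. The early counts changed when single libraries were left out. The tests in B15 contain B15_0, which differed from RP_0 before feeding.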

How the results depend on the processing

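All 23 counts of called members stayed within 1.5 times with DESeq2's size factors and with thinning to the smallest total. At an unadjusted p below 0.05 with a 2-fold change, the counts were 0 in RP_early/RP_0, B15_early/B15_0, B1415_early/B1415_0, B1415_0/RP_0, B14_early/RP_early, B1415_early/RP_early and the early interactions of B15 and B1415, 20 in B15_late/B15_0, 3 in B1415_late/B1415_0, 4 in RP_late/RP_0, 7 in B15_0/RP_0, 1 in B15_early/RP_early and B14_late/RP_late, and 7 in the late interaction of B15. In the late interaction of B14 it gave 6, against 0 with adjustment and 32 at an unadjusted p below 0.05 alone, where 17.6% of all genes were. The share of all genes at an unadjusted p below 0.05 with a 2-fold change was not counted.

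Brackets here hold the shares of all genes called higher and lower in the same fit. A single fit of 36 libraries gave 8 in RP_early/RP_0 (11% and 11.6%), 18 in RP_late/RP_0 (22.1% and 22.1%), 6 in B14_early/B14_0 (6.71% and 6.08%) and 8 in B15_early/B15_0 (6.81% and 7.2%). It gave 6 in B1415_early/B1415_0 (8.04% and 7.86%), 6 in B14_0/RP_0 (9.03% and 3.54%), 0 in B1415_0/RP_0 (1.43% and 0.866%) and 2 in B14_early/RP_early (11.6% and 11.4%). It gave 1 in B1415_early/RP_early (2.95% and 1.23%), 29 in the late interaction of B14 (1.18% and 5.72%) and 0 in the early interactions of B15 (0.0265% and 0.0378%) and B1415 (0.0265% and 0.0151%). DESeq2 gave 2 in B14_early/B14_0 (3.57% and 1.64%) and 8 in the late interaction of B14 (0.898% and 2.2%). It gave 1 in B14_0/RP_0 (0.552% and 0.284%), B15_late/RP_late (1.19% and 0.6%), B1415_late/RP_late (0.615% and 0.648%) and the late interaction of B1415 (0.259% and 0.124%). Total-count scaling gave 1 in B14_early/B14_0 (1.58% and 0.385%), 11 in B1415_early/RP_early (11% and 7.49%) and 1 in B15_late/RP_late (0.521% and 0.212%). No filter gave 1 in B15_late/RP_late (0.721% and 0.361%), 11 in the early interaction of B15 (1.51% and 3.71%) and 7 in that of B1415 (0.586% and 0.827%). The causes were not tested.

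With RP_0 as the baseline, B14 early gave 14 called members, and in B15 late the log2 fold change of 5 genes turned positive: Os01g0600900 (0.35, edgeR adjusted p = 0.0431), Os06g0320500 (0.31, 0.058), Os02g0197600 (0.32, 0.027), Os08g0435900 (0.32, 0.0402) and Os01g0501800 (0.75, 0.000609). These genes were higher in B15_0 than in RP_0. The sign also turned for 1 gene in B14 and 4 in B1415 late, and for 15 in B14, 27 in B15 and 7 in B1415 early.

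The replicate numbers did not pair the libraries: in 0 of 17 comparisons did all correlations between libraries of equal number exceed 0.1 (range -0.526 to 0.316). The replicate block changed the counts as follows, with the shares of all genes called higher and lower in the same fit in brackets. It gave 16 in B14_late/B14_0 (13.2% and 13.2%), 11 in B15_early/B15_0 (9.39% and 10.4%) and 6 in B14_early/RP_early (14.3% and 17.8%). It gave 12 in B1415_early/RP_early (10.9% and 11.1%), 32 in B14_late/RP_late (8.94% and 8.76%) and 0 in the early interaction of B1415 (0.223% and 0.156%).

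Leaving out each library in turn gave 0 to 7 in B14_early/B14_0, 12 to 27 in B14_late/B14_0, 9 to 22 in B15_early/B15_0, 8 to 23 in B1415_early/B1415_0, 16 to 26 in B1415_late/B1415_0, 0 to 6 in B14_0/RP_0, 1 to 12 in B1415_0/RP_0, 4 to 14 in B14_early/RP_early, 4 to 10 in B1415_early/RP_early, 6 to 32 in B14_late/RP_late, 0 to 2 in B15_late/RP_late and 0 to 5 in B1415_late/RP_late. For the interactions it gave 0 to 2 in B14 early, 0 to 8 in B14 late, 2 to 14 in B15 early, 0 to 4 in B1415 early and 0 to 4 in B1415 late. Counts in RP_early/RP_0, RP_late/RP_0, B15_late/B15_0, B15_0/RP_0, B15_early/RP_early and the late interaction of B15 stayed within 1.5 times. The share of all genes called moved between these fits too, and in B14_late/RP_late 1.44% to 11.6% were down-regulated. Every member had 67 or more counts in every library.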
